A study of Mus musculus with 7 samples.

Results

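Titin and desmin are structural proteins of the muscle fibre, and their genes, Ttn and Des, have 1 probe each among the 223 probes of an array hybridised with soleus RNA. These are 2 of the 203 genes that the annotation names on the array. Their probes were found by their gene symbol in the platform annotation. The samples are the soleus muscles, a mainly slow hindlimb muscle, of 7 mice of the 129/SV strain that lack tenascin-C, a glycoprotein of the extracellular matrix encoded by Tnc. All 7 are cage controls and form 1 group, so every animal carries the same deficiency and nothing can be said of what the deficiency does. The allele, age and sex were not used here. In the titles, replicate 1 is marked C16 while the remaining replicates are marked C15, codes that the labels leave unexplained. Replicate numbers only name the mice. The p-values of the variance test below concern the spread between these samples. Those of the permutation tests concern the association of 2 probes across them, mostly without replicate 3.

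Titin is a giant protein that runs from the Z-disc to the M-line of the sarcomere. It acts as a spring that carries passive tension and as a scaffold for the thick filament. Desmin forms the intermediate filaments that tie the Z-discs of neighbouring myofibrils to each other, to the nucleus and to the membrane anchors called costameres. The thick filament itself is made of myosin heavy chains, of which Myh7 encodes the slow form, Myh2 the fast oxidative IIa form, Myh1 the fast IIx form and Myh4 the fast IIb form.

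The sequences next to the starts of Ttn and Des are shown to give the letters that precede the 2 genes. They are the 250 bases before the start in RefSeq's mouse promoter table (build GRCm38.p6), at chr2:76982548-76982797 on the minus strand for Ttn and at chr1:75360042-75360291 on the plus strand for Des. Capitals mark matches, on either strand, to the E-box (CANNTG), the MEF2 consensus, the CArG box, the M-CAT motif (CATTCC), the TATA motif (TATAAA) and the GC box (GGGCGG). No 2 matches overlap in these windows.
Ttn: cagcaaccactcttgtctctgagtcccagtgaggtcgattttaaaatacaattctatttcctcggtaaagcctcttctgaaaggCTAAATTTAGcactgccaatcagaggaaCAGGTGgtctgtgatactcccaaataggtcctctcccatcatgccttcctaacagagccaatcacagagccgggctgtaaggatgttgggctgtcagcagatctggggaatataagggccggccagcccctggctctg
Des: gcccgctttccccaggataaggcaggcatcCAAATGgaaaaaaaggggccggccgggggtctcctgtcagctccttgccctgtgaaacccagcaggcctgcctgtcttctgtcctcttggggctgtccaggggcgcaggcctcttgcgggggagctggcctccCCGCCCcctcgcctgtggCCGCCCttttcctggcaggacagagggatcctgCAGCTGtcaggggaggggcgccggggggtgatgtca
The Ttn window held 1 MEF2 match, CTAAATTTAG, which begins 166 bases before the start, and 1 E-box, CAGGTG. The Des window held 2 E-boxes, CAAATG and CAGCTG, and 2 GC boxes, and no match to the MEF2 consensus. Of 32851 promoter windows of this length, 2.92% held the MEF2 consensus, 66.2% an E-box, 32.7% the GC box, 12.6% the M-CAT motif, 12.4% the TATA motif and 1.47% the CArG box. The GC content was 50.0% in the Ttn window and 67.2% in the Des window. These are matches of letters, and the arrays carry no measurement of binding at them.

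Signals are given as percent of the array's summed signal, which leaves out the probe for 28S rRNA and 1 unnamed bright probe. Each array's 10th percentile served as its floor. A probe above 3 times that value counts here as clear of the floor, and the probes clear of it on all arrays but that of replicate 3 are called bright. The array of replicate 3 stood apart from the rest. Its median correlation with the other arrays over all probes was 0.280, against 0.914 to 0.954 for the others, and its floor was 0.15% against 0.04% to 0.08%. Signals, their spread and the tested relations are therefore given with and without it. The SDs of ratios and the nearest probes are from the other 6 arrays unless stated. The other 6 arrays also differed in 28S rRNA signal, which was 3.48% and 3.79% in replicates 1 and 2. In replicates 4 to 7 it was 24.1% to 49.7%, and in replicate 3 it was 0.37%. The median probe read 0.07% to 0.13% on the 6 arrays other than that of replicate 3, where it read 0.18%. The Tnc probe was clear of the floor on no array, and no array of a mouse with the intact gene was analysed here.

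Ttn was well measured in 6 of the 7 muscles. Its signal was 1.97% in replicate 1, 3.03% in replicate 2, 0.43% in replicate 3, 2.05% in replicate 4, 1.73% in replicate 5, 2.98% in replicate 6 and 2.76% in replicate 7. Replicates 2, 6 and 7 were thus the high ones, replicates 1, 4 and 5 lay lower, and replicate 3 lay far below all of them. The mean was 2.14% ± 0.91 (SD, n = 7), and 2.42% ± 0.57 without replicate 3 (SD, n = 6). Among the 221 probes inside the sum, Ttn ranked between 6 and 15 on the 6 arrays and 30 on that of replicate 3. It read 21.6 to 75.8 times the floor on the 6 arrays and 2.87 times on replicate 3, so it was clear of the floor on 6 of 7 arrays. Of all probes, 38 of 223 (17%) were bright in this sense, and 9 (4.04%) were clear of the floor on all 7.

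Des was well measured in the same 6 muscles, with another order among them. Its signal was 3.20% in replicate 1, 3.09% in replicate 2, 0.32% in replicate 3, 1.58% in replicate 4, 1.83% in replicate 5, 2.31% in replicate 6 and 2.34% in replicate 7. Replicates 1 and 2 were above every one of replicates 4 to 7, which Ttn did not show, since Ttn in replicate 1 was among the lower values. The mean was 2.10% ± 0.98 (SD, n = 7), and 2.39% ± 0.65 without replicate 3 (SD, n = 6). Des ranked between 7 and 15 on the 6 arrays and 45 on that of replicate 3, where it read 2.13 times the floor. Among bright probes 6 of 38 (15.8%) had this order, with both of the first 2 replicates above all of the last 4, and 10 of 223 (4.48%) over all probes. Myh2, Myh1 and Myh4 are among the 6, and Myh7 and Ttn are not. The 28S rRNA signal splits the arrays in the same way, and its part in the order of Des was not tested.

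**Figure D1:**
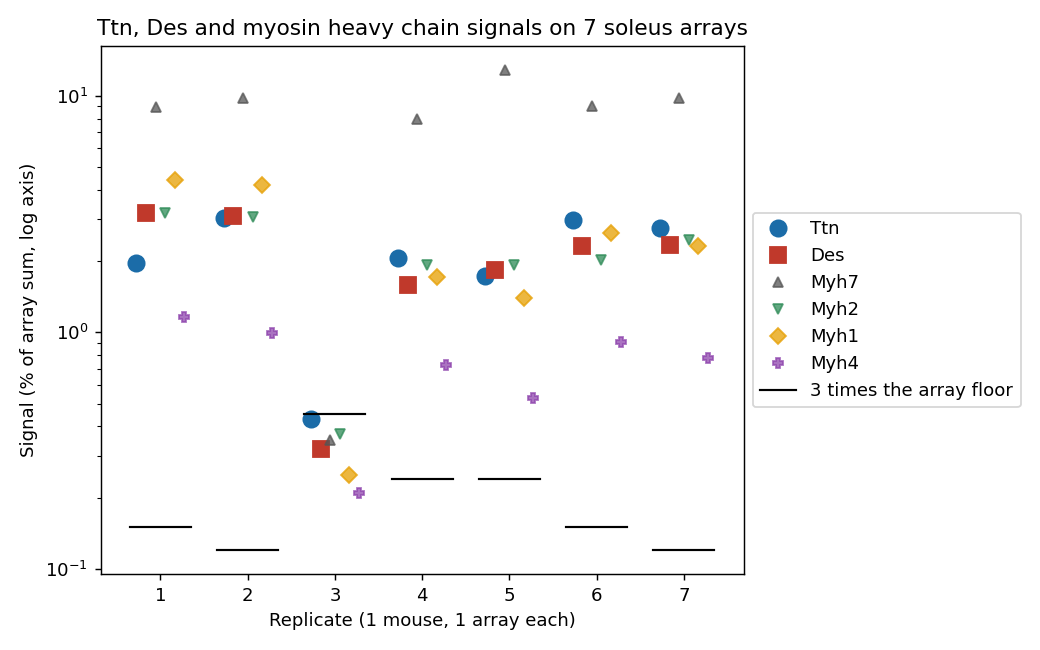
Signal in percent of the array sum (log axis) for Ttn, Des and the 4 myosin heavy chain probes in each of the 7 replicates, 1 point per array, with a bar at 3 times that array's floor; points are shifted sideways so that they do not overlap. Ttn and Des lie between 1.58% and 3.20% on 6 arrays and at 0.43% and 0.32% on the array of replicate 3, both below its bar.

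Replicates 1 and 2 had nearly the same signals for most bright probes, and Ttn was one of the exceptions. Ttn was 1.54 times as high in replicate 2 as in replicate 1, while the ratio was 0.97 for Des, 1.10 for Myh7, 0.96 for Myh2, 0.95 for Myh1 and 0.85 for Myh4. Among the 38 bright probes the median size of this difference was 0.18 on the log2 scale, against 0.62 for Ttn, and 3 of the 38 (7.89%) differed by at least as much as Ttn. The others were Aldoc, an aldolase isoform at 0.25% in replicate 1 and 0.15% in replicate 2, and the integrin gene Itgb1, at 0.36% in replicate 1 and 0.56% in replicate 2. Both were named after their values were seen. Each value is from 1 array, so the difference has no replicate check.

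The low values of replicate 3 were shared by most other bright probes. Its Ttn signal was 5.63-fold below the mean of the other 6 arrays and its Des signal 7.47-fold below. The myosin probes were below by 27.7-fold for Myh7, 11.1-fold for Myh1, 6.57-fold for Myh2 and 4.05-fold for Myh4. After subtraction of each array's floor the same folds were 8.44 for Ttn, 13.7 for Des, 48.3 for Myh7, 27.2 for Myh1, 10.8 for Myh2 and 13.2 for Myh4. Replicate 3 was below every other array for 31 of the 38 bright probes (81.6%) and for 32 of all 223 (14.3%), so Ttn and Des shared this with most bright probes. Bright probes were chosen by their level on the other 6 arrays alone, a choice that favours a low replicate 3 among them. By Dixon's test of 1 distant value among 7, replicate 3 was set apart as lowest for Ttn and Des in log2 signal, as for 19 of 223 probes (8.52%), and any array was set apart for 61 probes (27.4%). In this muscle all 6 probes were under 3 times the floor.

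Variation between the mice was then set against that of other probes. On the log2 scale the SD of Ttn was 0.98 over 7 arrays and 0.35 without replicate 3, and that of Des 1.14 and 0.40. The median SD over all 223 probes was 0.69 and 0.44, and over the 38 bright probes 0.91 and 0.34. In limma's variance test neither gene was more variable than the trend for probes of a like level, with an adjusted p of 0.885 for both over 7 arrays and 0.949 for both without replicate 3. The trend SD was 1.19 at the level of Ttn and 1.17 at that of Des over 7 arrays, and 0.39 at both without replicate 3. Of the 223 probes limma called 0 (0%) over 7 arrays, with 17 (7.62%) at an unadjusted p under 0.05, and a fit with no trend also called 0, with 10 at an unadjusted p under 0.05. Without replicate 3 it called 5 (2.24%), and neither Ttn nor Des was among them. Over 7 arrays the trend contains the low values that bright probes had in common in replicate 3.

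The ratio of a scaffold probe to a myosin probe within an array does not depend on the array's overall scale. A ratio of probe signals is no ratio of transcripts, so only its variation between arrays is described. The ratio of Des to Myh2 was 1.0 in replicate 1, 1.0 in replicate 2, 0.86 in replicate 3, 0.82 in replicate 4, 0.95 in replicate 5, 1.15 in replicate 6 and 0.95 in replicate 7. The lowest value was thus that of replicate 4 and the highest that of replicate 6, and replicate 3 lay between them. In replicate 3, however, Des read 2.13 and Myh2 2.47 times the floor. After subtraction of the floor the ratio there was 0.77, and the part of background in it was not tested. Over the other 6 arrays the SD of the ratio was 0.16 on the log2 scale (n = 6), beside 0.40 for Des alone and 0.34 for Myh2 alone. Among the 37 bright probes other than Myh2 this was the lowest SD of a ratio to Myh2, the median being 0.44. The next lowest was that of Cox6a2, which encodes a respiratory chain subunit of muscle, at 0.19. After quantile normalization the SD was 0.29 and ranked 14, and pooled within the parts of the arrays split by 28S signal it was 0.17 and ranked 5.

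The ratio of Des to Myh1 was more variable and that to Myh4 intermediate. Des over Myh1 ran from 0.73 in replicate 1 to 1.31 in replicate 5, with an SD of 0.32 (log2, n = 6), also the lowest of 37 bright probes, whose median was 0.78. Des over Myh4 ran from 2.16 in replicate 4 to 3.45 in replicate 5, with an SD of 0.24, ranking 2 among 37 with a median of 0.52. With quantile normalization the ranks were 8 for Myh1 and 10 for Myh4, and pooled within the parts split by 28S signal 6 and 9. Over all 7 arrays the SD was 0.34 for Myh1, at rank 1, and 0.40 for Myh4, at rank 5.

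Against the slow myosin the ratio of Des moved more. Des over Myh7 was 0.36 in replicate 1, 0.32 in replicate 2, 0.91 in replicate 3, 0.20 in replicate 4, 0.14 in replicate 5, 0.25 in replicate 6 and 0.24 in replicate 7. Replicate 5, which had the highest Myh7 signal, 12.8%, gave the lowest ratio and replicate 3 the highest. Without replicate 3 the SD was 0.48 (log2, n = 6), which ranked 23 among 37 bright probes with a median of 0.45.

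The spread of the ratios of Ttn to the fast myosins depended on replicate 1. Ttn over Myh2 was 0.62 in replicate 1, 0.98 in replicate 2, 1.16 in replicate 3, 1.07 in replicate 4, 0.90 in replicate 5, 1.48 in replicate 6 and 1.12 in replicate 7. Replicate 1 was lowest and replicate 6 highest, and the SD was 0.42 (log2, n = 6), at rank 17 of 37. The SD was 0.59 for Ttn over Myh1, at rank 11, and 0.39 for Ttn over Myh4, at rank 10. In each of these ratios replicate 1 was the lowest array. Without replicate 1 the SD was 0.27 for Ttn over Myh2, at rank 5, 0.33 for Ttn over Myh1, at rank 3, and 0.12 for Ttn over Myh4, the lowest of the 37. Leaving out the lowest array of a ratio tends to narrow its spread, so these ranks partly follow from that choice. With another of the 6 arrays left out instead, Ttn over Myh4 ranked 10 to 18. The difference in spread between the Ttn and the Des ratios was not tested.

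Ttn over Myh7 was 0.22 in replicate 1, 0.31 in replicate 2, 1.23 in replicate 3, 0.26 in replicate 4, 0.13 in replicate 5, 0.33 in replicate 6 and 0.28 in replicate 7. Its SD without replicate 3 was 0.47 (log2, n = 6), at rank 22 of 37. Leaving out replicate 5 as well brought it to 0.23, at rank 6. The ratio in replicate 3 was 4.99 times the geometric mean of the other 6, and 5.81 times after subtraction of each array's floor. For Des over Myh7 the same values were 3.79 and 3.60. Both numerator and denominator were near the floor in replicate 3, and the part of background in these ratios was not tested.

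The 2 scaffold genes also changed against each other. Ttn over Des was 0.62 in replicate 1, 0.98 in replicate 2, 1.34 in replicate 3, 1.30 in replicate 4, 0.95 in replicate 5, 1.29 in replicate 6 and 1.18 in replicate 7. The SD was 0.41 (log2, n = 6), beside 0.35 for Ttn alone and 0.40 for Des alone. Among bright probes set against Des, Ttn ranked 16 of 37, with a median of 0.48. Without replicate 1, the lowest array of this ratio, the SD was 0.22, at rank 3. With another of the 6 arrays left out instead, the rank was 13 to 20.

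**Figure D2:**
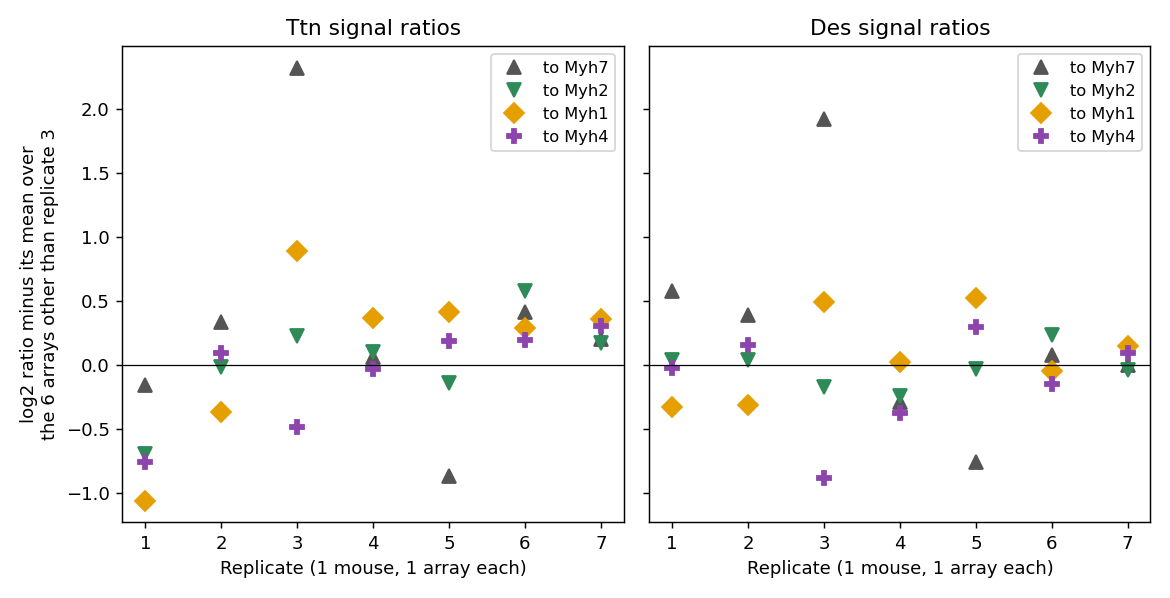
Log2 signal ratio of Ttn (left) and Des (right) to each of 4 myosin heavy chain probes, minus its mean over the 6 arrays other than replicate 3; 1 point per array and ratio. The ratio of Des to Myh2 stays closest to 0, with an SD of 0.16, while both ratios to Myh7 are highest in replicate 3 and lowest in replicate 5.

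Across the 6 arrays other than replicate 3, the r of Des was 0.82 or more with each of the 3 fast myosins, and that of Ttn was 0.46 or less with each of the 4. In all, 9 relations of log2 signals were tested with exact two-sided permutation tests over 720 pairings and adjusted together. Des with Myh2 had r = 0.93 (exact permutation p = 0.0083, adjusted 0.075) and rho = 0.99 (exact permutation p = 0.0056, adjusted 0.050). Des with Myh1 had r = 0.95 (exact permutation p = 0.019, adjusted 0.088) and rho = 0.89 (exact permutation p = 0.033, adjusted 0.10). Des with Myh4 had r = 0.82 (exact permutation p = 0.047, adjusted 0.14) and rho = 0.89 (exact permutation p = 0.033, adjusted 0.10). None of these values of r passed 0.05 after adjustment. Des with Myh7 had r = -0.075 (exact permutation p = 0.90, adjusted 0.90) and rho = 0.086 (exact permutation p = 0.92, adjusted 1.0).

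None of the relations of Ttn passed. With Des it had r = 0.42 (exact permutation p = 0.38, adjusted 0.56) and rho = 0.26 (exact permutation p = 0.66, adjusted 0.85). With Myh2, Myh1, Myh4 and Myh7 r was 0.26, 0.46, 0.46 and -0.30 (exact permutation p = 0.57, 0.32, 0.35 and 0.67, adjusted 0.74, 0.56, 0.56 and 0.75). In the same order rho was 0.32, 0.43, 0.43 and 0.029 (exact permutation p = 0.54, 0.42, 0.42 and 1.0, adjusted 0.82, 0.76, 0.76 and 1.0). Without replicate 1 the r of Ttn was 0.82 with Des, 0.90 with Myh1 and 0.94 with Myh4, so that array lowers them. A p above the threshold with 6 arrays does not show that Ttn varied independently, and whether the r of Des and Ttn with a given myosin differ was not tested.

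**Figure D3:**
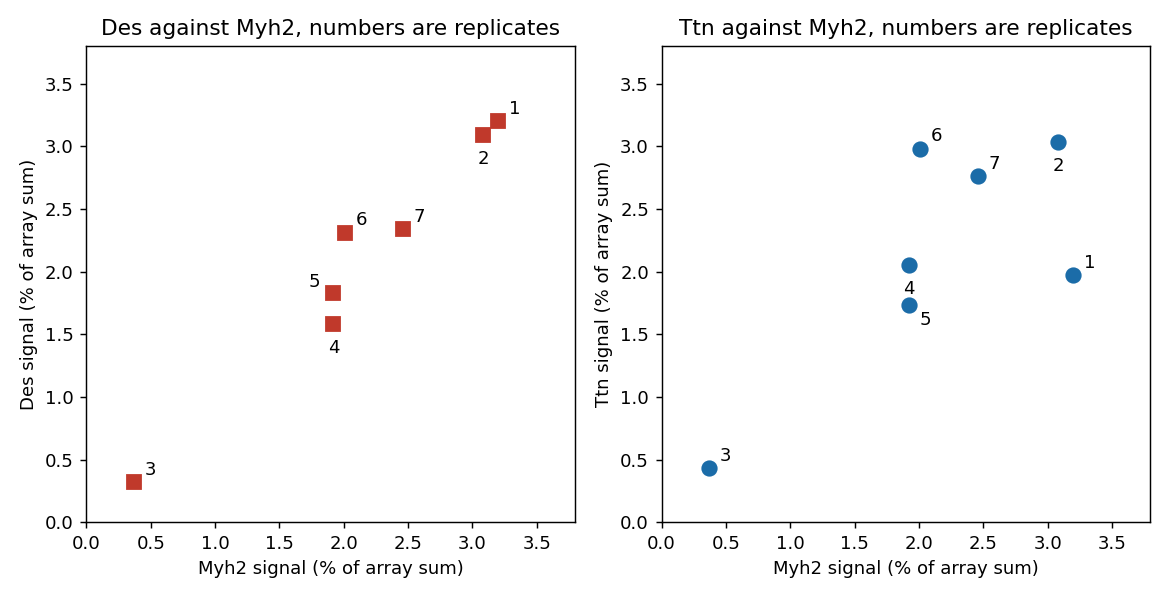
Des signal (left) and Ttn signal (right) against Myh2 signal, all in percent of the array sum, 1 numbered point per replicate. Des rises with Myh2 along a line (r = 0.93 in log2 signal without replicate 3), and Ttn scatters (r = 0.26), with replicate 1 low for its Myh2 signal.

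The fits depend on how arrays are grouped and scaled. Replicates 1 and 2 form a part of their own for Des and the fast myosins. Taken around the mean of its part, Des had r = 0.70 with Myh2, 0.80 with Myh1 and 0.54 with Myh4, none of which passed (exact permutation p = 0.29, 0.29 and 0.46 over 48 pairings within the parts). With so few pairings the smallest permutation p is 0.021, so a single relation could not pass after adjustment. When replicates 1 and 4 were dropped, whose Des values lie farthest from the median, r was 0.91, 0.99 and 0.89 with Myh2, Myh1 and Myh4 (n = 4). When replicates 2 and 5 were dropped, whose Ttn values lie farthest from the median, the r of Ttn with Des was -0.015 and with Myh2 -0.39 (n = 4). Dropping the most extreme Ttn values narrows their range, so 4 arrays cannot show what the small positive values rest on. With the array medians set equal, the r of Des passed with Myh2 (0.98, exact permutation p adjusted 0.013), Myh1 (0.97, adjusted 0.031) and Myh4 (0.95, adjusted 0.038). With quantile normalization none passed, and r was 0.55, 0.76 and 0.72 with Myh2, Myh1 and Myh4 (exact permutation p adjusted 0.57, 0.56 and 0.56). With the medians set equal, the r of Ttn with Des was 0.85 (exact permutation p = 0.047, adjusted 0.077). That scaling also moved the r of Des from -0.075 to 0.82 with Myh7 and from -0.24 to 0.89 with Mb, the myoglobin gene. With the 28S rRNA probe it stayed negative (-0.93 and -0.86). A higher r of Des under that scaling was thus not particular to the fast myosins. Over all 7 arrays every r was between 0.92 and 0.99, and replicate 3 raised each of them. The values of Ttn, and that of Des with Myh7, rest on that array. The r of Des with Myh2, Myh1 and Myh4 was 0.93, 0.95 and 0.82 without it.

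The probes most like each gene were sought among the 35 other named probes clear of the floor on the 6 arrays, by Pearson's r of log2 signal (n = 6), given in parentheses. For Ttn they were Aldoa, the muscle aldolase of glycolysis (0.81), Mef2c, a transcription factor of muscle genes (0.74), Itgb1, the integrin beta chain of membrane anchors (0.65), Acadl, an enzyme of fatty acid oxidation (0.57), and Pdha1, a subunit of pyruvate dehydrogenase (0.54). For Des they were Myh1 (0.95), Cox6a2 (0.94), Myh2 (0.93), Myh4 (0.82) and Gapdh, a glycolytic enzyme (0.74). Over all 7 arrays the r of Itgb1 with Ttn was -0.75, while Aldoa, Mef2c, Acadl and Pdha1 had 0.91 to 0.97. On the 6 arrays Ttn was the 13th of 37 bright probes in likeness to Des, and Des the 8th in likeness to Ttn. All points share 6 arrays on which signals are shares of 1 sum.

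The count of probes related to each gene was taken as background. Of 222 other probes, 96 (43.2%) had an unadjusted exact permutation p under 0.05 with Des and 12 (5.41%) with Ttn, in either direction. After adjustment 0 (0%) passed for each gene. With only 720 pairings a single probe could not pass after adjustment over 222, so the 0 says little. The 28S rRNA probe had r = -0.93 with Des (exact permutation p = 0.0014, adjusted 0.053 over all probes) and -0.17 with Ttn (exact permutation p = 0.62, adjusted 0.81). The relation of Des to the fast myosins and its relation to the 28S signal cannot be told apart on 6 arrays, since both separate replicates 1 and 2 from the rest.

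**Figure D4:**
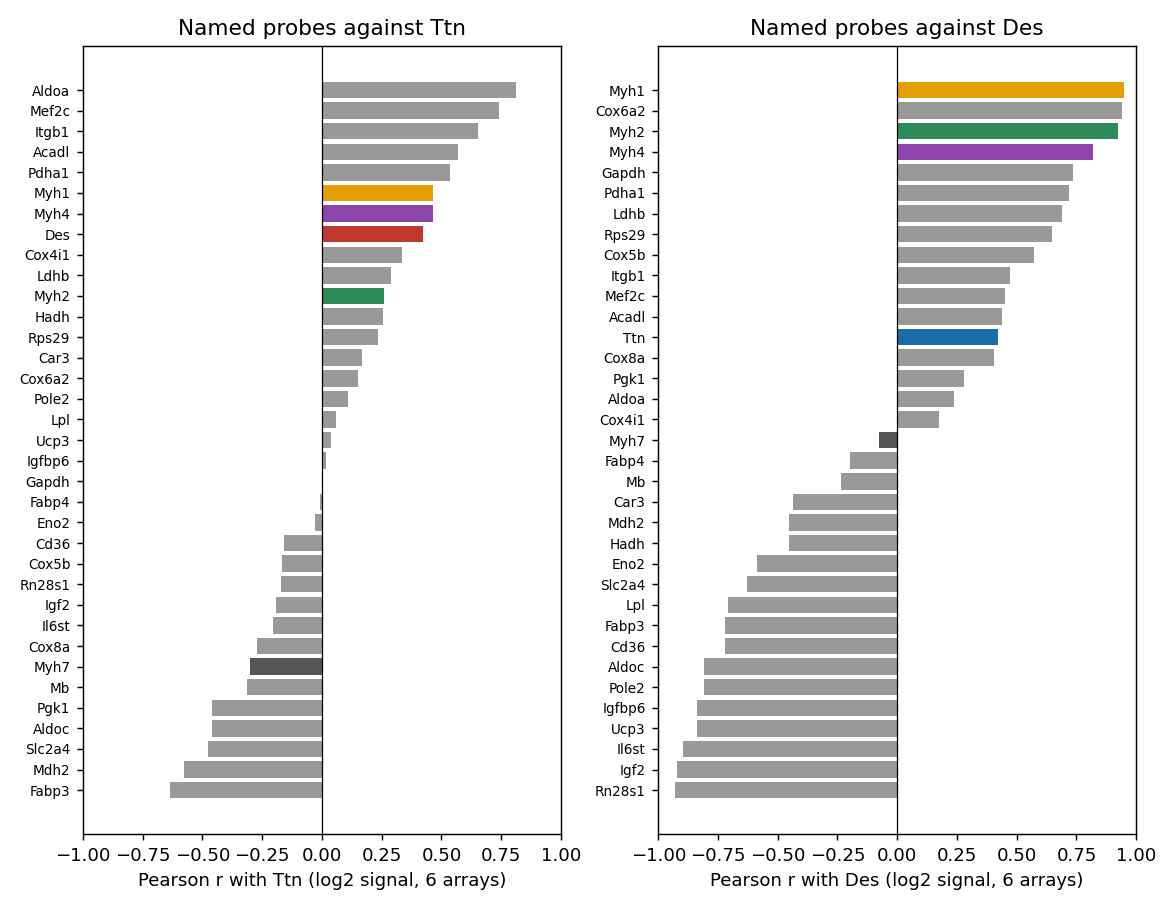
Pearson's r of log2 signal over the 6 arrays other than replicate 3 between Ttn (left) or Des (right) and each of 35 other named probes clear of the floor; coloured bars are Ttn, Des and the myosin heavy chains. Myh1, Myh2 and Myh4 are among the 4 probes nearest to Des (0.95, 0.93 and 0.82), while the nearest to Ttn is Aldoa (0.81).

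Other parts of the sarcomere and its anchors were sparsely covered. Of 44 other sarcomere genes sought, 1 was on the array, Capn3, a calpain that binds titin, and at 0.082% ± 0.022 (SD, n = 6) it was clear of the floor on no array. Of 32 genes of the intermediate filament system and membrane anchors 6 were present, and 1 of them was clear of the floor on all 6 arrays. That was Itgb1, at 0.383% ± 0.104 (SD, n = 6), which differed from Ttn and Des in being higher in replicate 3, at 1.28%. The laminin chain genes Lama2, Lama4, Lamb1, Lamb2 and Lamc1, whose products form the basement membrane outside the anchors, averaged between 0.080% and 0.147% on the 6 arrays. Of 11 regulators of muscle genes 7 were present, and 1, Mef2c at 0.637% ± 0.128 (SD, n = 6), was clear of the floor on all 6 arrays and lower in replicate 3, at 0.25%. Srf, whose product binds the CArG box, read 0.170% ± 0.044 and was clear of the floor on 2 arrays. In limma's variance test 0 of these 14 probes were called over 7 arrays or without replicate 3. Of all 223 probes, 0 (0%) and 5 (2.24%) were called, so a count of 0 among 14 is near those shares. Apart from Itgb1 and Mef2c, none of the 14 was clear of the floor on all 6 arrays. The median SD was 0.39 for the anchors and 0.36 for the regulators (log2, n = 6), against 0.44 over all probes.

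The muscle label was checked against fibre markers, of which 7 were on the array. All 7 were clear of the floor on the 6 arrays, and their summed signal was 24.7% to 35.3% there and 2.23% in replicate 3. Desmin is also made by smooth muscle cells, pericytes and satellite cells. Of 8 markers of smooth muscle and pericytes only the receptor gene Pdgfrb was on the array, at 0.09% to 0.15% on the 6 arrays and 0.19% in replicate 3, clear of the floor nowhere. The satellite cell markers present, Myf5 and Myod1 of 5, summed to 0.09% to 0.20% on the 6 arrays and to 3.26% in replicate 3, of which Myod1 gave 3.11%. The 5 endothelial markers present of 7 summed to 0.45% to 1.27% and to 9.5% in replicate 3, of which Pecam1 gave 8.36%. In that muscle Cdh5 read 0.60%, and Kdr (0.16%), Tek (0.16%) and Flt1 (0.22%) were not clear of the floor. Fibroblast markers (3 probes) summed to 0.24% to 0.34% and 0.49%, the adipocyte marker Fabp4 read 0.34% to 0.66% and 0.18%, and the leukocyte marker Il1b 0.04% to 0.09% and 0.17%. The fibroblast and leukocyte probes were clear of the floor on no array. In replicate 3 each of them read 0.16% or 0.17%, near that array's floor of 0.15%. No marker was at 0 on any array. Des and Ttn were both low on the array of replicate 3, where Myod1, Pecam1 and Cdh5 were clear of the floor and higher than elsewhere. Pecam1 and Cdh5 were each also clear of it on 3 of the other 6 arrays, and Myf5 on no array. The part of other cells in the low values of Des and Ttn was not tested. In whole muscle, fewer fibres and less RNA per fibre cannot be told apart. Whether the sample or the hybridisation of replicate 3 differed as a whole was not tested.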

How the data were processed

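Total RNA from cryosections of the muscle belly (4 µg) was reverse transcribed with gene-specific primers and a radioactive nucleotide and hybridised to a 1-channel array, per the labels' protocols. The scanning and background treatment of the arrays were not given in the sources used here. For 223 probes the authors deposited spot intensities on a linear scale. Without the 28S rRNA probe and 1 unnamed probe they sum to 99.8% to 100.02% per array, so the authors' intensity values are shares of the array sum. Because shares constrain each other, bright probes can move the rest. Of the probes, 205 had 1 gene symbol and 18 none. Platform annotation named them.

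Log2 of these values was analysed without further scaling. The variance test used limma 3.58.1 in R 4.3.3 (intercept only, robust trend, one-sided F test, Benjamini-Hochberg over all probes, threshold 0.05). Relations used exact permutation in Python 3.11.15. Both were also run on simulated data, with outcomes not given here. For the variance test the simulated probes were drawn independently, so shifts shared by probes, as in replicate 3, were not covered. Alternatives were median-centring, quantile normalization, subtraction of the floor, a pseudocount, a filter on dim probes (166 kept), a fit without trend, the split by 28S signal and leaving out arrays. The text names Ttn, Des, the myosin probes, members of gene lists, and the 5 bright named probes nearest to each gene. Members and lists were chosen with earlier results of these data known. Precision is limited by 7 arrays. The genes' symbols matched RefSeq's promoter table.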

Additional observations from a re-analysis of the deposited data

Results flagged for a closer look

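By Dixon's test (the distance of 1 array from its nearest neighbour as a share of the range, critical value 0.568 for 7 arrays), replicate 3 stood apart as the lowest array in log2 signal for Ttn (0.713) and Des (0.694). On the linear scale the gaps were 0.500 and 0.438, below the critical value. In log2 signal replicate 3 was flagged as lowest for 19 of 223 probes (8.52%), and any array for 61 (27.4%). Of the 9 log2 ratios examined, 1 was flagged, that of Ttn to Myh7, highest in replicate 3 (0.597). Chance flags about 1 in 20.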

How the results depend on the processing

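Of 251 alternative values for signals, spreads, relations and ratios, 20 were relations whose r changed sign and 9 were relations that passed the threshold where the reported one had not. The variance tests and the other 88 relations kept their side of the threshold. With 5 or 4 arrays, or pairings within the parts, so few pairings exist that a single relation could not pass after adjustment. Keeping the side in those settings therefore shows little. The signals and mean ratios moved by less than 1 SD. Of 90 alternative mean log2 ratios, 8 changed sign, all for ratios within 0.064 of 0 (Ttn to Myh2, Ttn to Myh1 and Des to Myh1) when 1 array was left out. The r of Ttn with Des was 0.94 over all 7 arrays, passing, and -0.015 without the 2 farthest arrays. The r of Ttn with Myh7 (-0.30) turned to 0.93 over 7 arrays, 0.63 with median-centring and 0.65 without the 2 farthest arrays, with a rho of 0.029, and ran from -0.59 to 0.74 when 1 array was left out, the latter without replicate 5. That of Ttn with Myh2 turned to -0.49 with quantile normalization and -0.39 without the 2 farthest arrays, and ran from -0.030 to 0.67. That of Ttn with Myh1 was 0.92 over 7 arrays, passing, and -0.21 without the 2 farthest, and ran from 0.11 to 0.90. With Myh4 it was 0.92 over 7 arrays, passing, -0.014 with quantile normalization and -0.27 without the 2 farthest, and ran from -0.083 to 0.94. The r of Des with Myh7 (-0.075) turned to 0.94 over 7 arrays, 0.82 with median-centring, 0.088 within the parts split by 28S signal and 0.086 as rho, and ran from -0.75 to 0.70. The r of Des with Myh2, Myh1 and Myh4 passed over 7 arrays (0.99, 0.99 and 0.97) and with median-centring (0.98, 0.97 and 0.95), were 0.55, 0.76 and 0.72 with quantile normalization, and ran from 0.89 to 0.99, 0.92 to 0.99 and 0.73 to 0.93 when 1 array was left out. Replicate 3 raised all 7-array values, and those of Ttn and of Des with Myh7 rest on it. The cause of the other changes was not tested. The SD of Des over Myh2 ranked 1 or 2 of 37 when any 1 of the 6 arrays was left out. Its ranks under other settings were added after the data were seen. No paired analysis was possible because all samples form 1 group. Signals near the floor, as in replicate 3, limit what ratios can show.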
